A study of Mus musculus with 2 samples.

Results

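The array carried 14 of its 41174 probes for 9 genes of acetylcholine signalling, of 27962 gene names on the array, and every probe of these genes was kept on its own. The genes were chosen by name, with earlier results of these data known. They are the 5 muscarinic acetylcholine receptor genes (Chrm1, Chrm2, Chrm3, Chrm4 and Chrm5), the genes of acetylcholine synthesis and transport that mark cholinergic neurons (Chat, Slc18a3 and Slc5a7) and Lhx8, a LIM homeobox gene of basal forebrain cholinergic neurons. The study compared brains of mothers that lack TDAG51 (gene symbol Phlda1), a gene with a pleckstrin homology-like domain, with brains of 2 control genotypes. All samples were from C57BL/6J female mice 8 weeks old, taken on postpartum day 0. The first array paired TDAG51 knockout (KO) RNA in Cy3 with TDAG51 wild-type (WT) RNA in Cy5. The second paired KO RNA, also in Cy3, with RNA of TDAG51 KO Tg in Cy5, a genotype that carries the same knockout and in addition a TDAG51 transgene. According to the methods, the BAI1-AP4 promoter drives the transgene in brain, mainly in cerebral cortex and hippocampus, and the KO Tg sample is of 1 transgenic line. The labels give neither the number of dams in a sample nor whether both KO samples were the same RNA. Every comparison rests on a single array with no dye swap. No test across animals could therefore be made, a dye effect of a probe cannot be told apart from a difference between genotypes, and the precision is limited by the number of arrays.

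Acetylcholine is made by choline acetyltransferase (Chat), loaded into synaptic vesicles by the vesicular transporter Slc18a3, and recovered after its breakdown as choline by the high-affinity transporter Slc5a7. In the brain it is released by projection neurons of the basal forebrain, by interneurons of the striatum, and by neurons of the brainstem that include the cranial motor nuclei. Of the muscarinic receptors, Chrm1, Chrm3 and Chrm5 couple to Gq and raise excitability, whereas Chrm2 and Chrm4 couple to Gi and dampen it. Chrm1 is abundant in cortex, hippocampus and striatum, Chrm4 in striatum, and Chrm2 is known as a receptor on cholinergic terminals. Lhx8 is needed for the development of forebrain cholinergic neurons.

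The oligonucleotides of 5 of the 9 genes are shown, those of Lhx8, Chrm1, Chrm3 and Chrm4 because probes of the same gene gave different ratios, and that of Slc5a7 because its higher value in KO rests on it alone. Positions are on mm7, as the scanner files list them, 5′ to 3′ as spotted, and probes that may lie outside the coding sequence are shown by their first 30 bases. The probes of Lhx8 lie on the minus strand of chromosome 3, 418 bases apart, at chr3:154214886-154214945 (AK165733) and chr3:154215364-154215423 (NM_010713).
Lhx8 AK165733, first 30 bases: gtgaatttgcaactgaaatttattttgcca
Lhx8 NM_010713, first 30 bases: ccaataagtcatacctaattccttctttca
The probes of Chrm1 lie on the plus strand of chromosome 19. The NM_007698 probe is at chr19:8361014-8361073, and the AJ006521 probe is listed over a span of 12921 bases, chr19:8345143-8358063, for its 60 bases.
Chrm1 AJ006521, first 30 bases: tggacaagctggatgccaaggtgatgccct
Chrm1 NM_007698, first 30 bases: tggtaagggaagttcccaaagcctaatgaa
The probes of Chrm3 lie on the minus strand of chromosome 13 at chr13:9790741-9790800 (NM_033269) and chr13:10033937-10033996 (AK051841), 243 kb apart.
Chrm3 NM_033269: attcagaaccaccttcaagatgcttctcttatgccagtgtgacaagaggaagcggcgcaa
Chrm3 AK051841, first 30 bases: ggtttccattagtgtatttcactcatcaga
Both probes of Chrm4 are assigned to NM_007699 on the plus strand of chromosome 2, 321 bases apart. The probe with the higher intensity is at chr2:91778956-91779015 and the other at chr2:91779337-91779396.
Chrm4 NM_007699, higher intensity: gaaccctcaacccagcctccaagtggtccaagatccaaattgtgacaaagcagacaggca
Chrm4 NM_007699, lower intensity: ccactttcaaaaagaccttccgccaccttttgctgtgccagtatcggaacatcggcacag
The only probe of Slc5a7 lies on the minus strand of chromosome 17 at chr17:52433019-52433078.
Slc5a7 NM_022025, first 30 bases: ttgttaatgtgcgttcttgaattatgaaca
Among all 14 probes the GC content was 33.3% to 55.0%, and 10 had at least 1 reading frame without a stop codon. The longest run shared by any pair of the 14 was 10 bases, and none shared a run of 20 bases with another probe of the array. Whether a probe lies in an exon, an intron or an untranslated region was not analysed here.

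Intensities below are the scanner's mean intensities of a spot, with the local background still in them. Over the probes of an array, the 4 channels had median intensities of 321.6 to 368.5 and median backgrounds of 39.0 to 44.0. Ratios are log2 of KO over control after background correction, which adds 50 to each intensity, and after loess normalization, so the fold of a dim probe is understated. The targeted gene was first examined as a check of the labels. The Phlda1 probe (NM_009344) measured 350.5 in KO and 7283 in WT, and was 17.3-fold lower in KO. On the second array it measured 44.1 in KO and 50.5 in KO Tg, both near background, so this probe did not show the transgene. The KO channels of the 2 arrays thus differed 7.95-fold in the intensity of this probe, well above background on the first array and not on the second, where the robust SD between the KO channels over all probes was 0.14 on the log2 scale. The check therefore rests on the first array. Whether the transgene holds the sequence of this probe is not given in the sources used here. All 6 genes of a list of general neuronal markers were above background on both arrays.

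A probe was tested where the scanner marked at least 1 of the 2 channels as well above background, which left 13 of the 14 probes against WT and 12 against KO Tg. Against WT, 2 of the 13 probes (15.4%) were at least 2-fold lower in KO, for Lhx8 and Chrm1, beside 4.42% of the 34571 probes tested on the array. A single probe (7.69%), that of Slc5a7, was at least 2-fold higher, beside 4.9% of all. Against KO Tg, 2 of 12 probes (16.7%) were at least 2-fold lower, for Lhx8 and Chrm3, beside 3.86% of 33802, and 1 (8.33%) was higher, again that of Slc5a7, beside 4.72%. Against both controls, 1 of 12 probes was at least 2-fold lower (Lhx8) and 1 higher (Slc5a7), beside 1.37% and 2.69% of 33254 probes. Each probe makes up 7.69% of the 13 and 8.33% of the 12, so these shares rest on 1 or 2 probes. The genes were chosen with earlier results of these data known, so the shares are not those of a set picked blind to the values. The median log2 ratio of the tested probes was -0.42 against WT and -0.20 against KO Tg, where the median of all probes tested was 0.01 in both. Both comparisons have KO in the same dye and their values are therefore given side by side, not as support for each other. Chrm1 and Chrm3 were picked by the study as lower in KO on these arrays, and their direction here is not independent evidence. For Chrm1 the study also reported lower values in KO by real-time PCR.

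**Figure D1:**
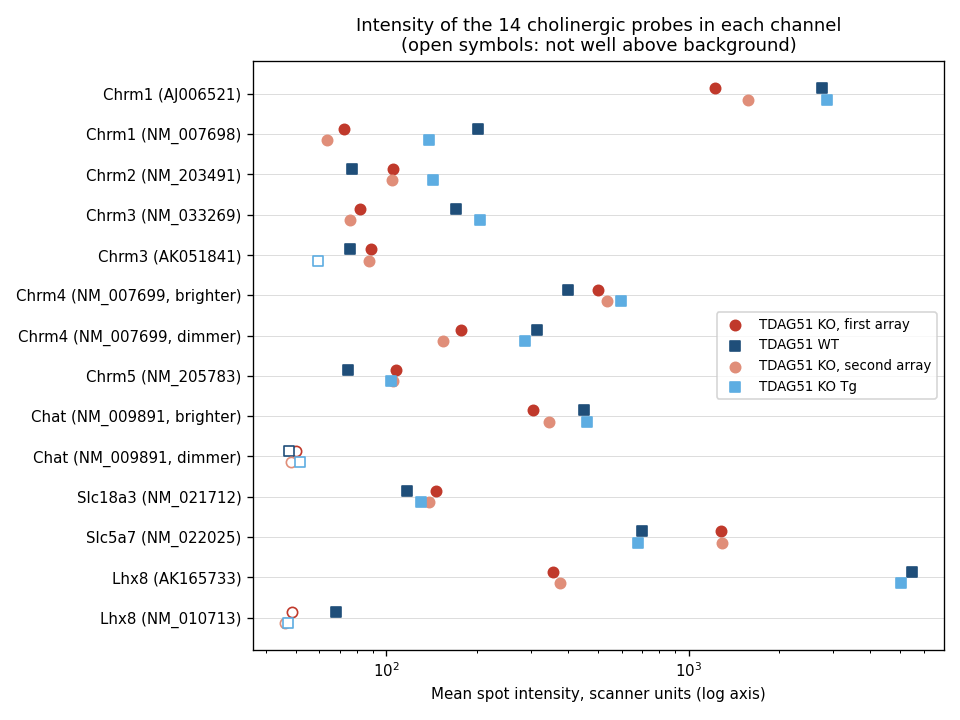
Mean intensity (arbitrary units, log axis) of the 14 probes in each channel of both arrays. Filled symbols are well above background and open symbols are not. The Lhx8 AK165733 probe has the widest gap, with KO at 356 and 374 and the controls at 5509 and 5062.

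Lhx8 showed the largest difference of the 9 genes, by 1 of its 2 probes. On the AK165733 probe, the intensity was 356 in KO and 5509 in WT on the first array, and 374 in KO and 5062 in KO Tg on the second. Both KO samples were thus far under both controls. The log2 ratio was -3.70 against WT and -3.46 against KO Tg, which is 13.0-fold and 11.0-fold lower. The scanner's error model gave errors of 0.426 and 0.404 on the log2 scale for these spots, which cover the measurement of a spot and not the animals. The probe was the 10th lowest of 34571 ranked probes against WT and the 25th lowest of 33802 against KO Tg. In whole-brain RNA, fewer cells that express a gene and less of its RNA per cell cannot be told apart, here and for the genes that follow.

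The other Lhx8 probe (NM_010713) was at or near background. It measured 48.8 in KO and 68.2 in WT, where only WT was well above background, and KO was at least 1.26-fold lower. On the second array it measured 46.0 in KO and 47.3 in KO Tg, both near background, and no ratio is given. The large difference of Lhx8 therefore rests on 1 oligonucleotide. Within 500 kb of the Lhx8 probes there were 12 other probes, of which 7 were above background on both arrays. None of the 7 was 2-fold lower in KO, and their log2 ratios ranged from -0.04 to 0.31 against WT and from -0.56 to 0.59 against KO Tg. Probes above background against WT only had log2 ratios of -0.99, just short of 2-fold, -0.36 and -0.19. A probe above background against KO Tg only had -0.56.

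Of the named probes, those whose pair of ratios over the 2 arrays lay nearest to that of the Lhx8 AK165733 probe were of Sp8, Ido1 and S100a5. Sp8, a zinc finger gene of olfactory bulb interneurons, had log2 ratios of -3.38 and -3.17 and lay at a distance of 0.43. Ido1, which encodes an enzyme of tryptophan breakdown, had -3.45 and -2.97 at a distance of 0.55. S100a5, a gene for a calcium-binding protein, had -4.34 and -3.92 at a distance of 0.79.

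Of the receptors that couple to Gq, both Chrm1 probes had lower values in KO than in each control. The AJ006521 probe measured 1228 in KO and 2771 in WT, and 1569.6 in KO and 2875 in KO Tg. This gave log2 ratios of -0.94 and -0.61, 1.92-fold and 1.52-fold lower, with scanner errors of 0.225 and 0.213. The second Chrm1 probe (NM_007698) was much nearer to background. It measured 72.1 in KO and 200.2 in WT, and 63.6 in KO and 139 in KO Tg, and all 4 channels had the scanner's mark for signal above background. Its log2 ratios were -1.30 and -0.83, 2.47-fold and 1.78-fold lower. Without the added 50, the same probe was 4.43-fold and 2.98-fold lower, and by the scanner's own ratio 6.36-fold and 4.38-fold. The direction of Chrm1 was thus the same for both oligonucleotides and both controls, whereas its size depended on the probe and the background correction.

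The probes of Chrm3 did not share a direction. The NM_033269 probe measured 81.7 in KO and 169.7 in WT, and 75.8 in KO and 204 in KO Tg. Its log2 ratios were -0.98 and -1.08, 1.97-fold and 2.11-fold lower. Without the added 50 these were 3.03-fold and 3.33-fold, and by the scanner's ratio 3.50-fold and 4.66-fold. The AK051841 probe, 243 kb away, measured 88.6 in KO and 75.6 in WT, and 87.6 in KO and 59.5 in KO Tg. Its log2 ratio was 0.21 against WT, 1.15-fold higher. Against KO Tg, where the KO Tg channel was near background, it was at least 1.25-fold higher in KO. The log2 ratios of the pair of probes differed by -1.18 against WT and -1.70 against KO Tg, with the NM_033269 probe lower on both.

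Chrm5, the third Gq-coupled receptor, had dim values of 107 in KO and 74.7 in WT, and of 105 in KO and 104 in KO Tg. Its log2 ratio was 0.49 against WT (1.41-fold higher) and 0.19 against KO Tg (1.14-fold higher). Neither value reached 2-fold, although by the scanner's ratio the first was 2.16-fold. Chrm5 did not have the direction of Chrm1 in either comparison.

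Of the receptors that couple to Gi, Chrm2 was the only tested member probe with opposite signs in the 2 comparisons. It measured 105 in KO and 77.0 in WT, and 105 in KO and 143 in KO Tg. The KO values were alike and the controls stood on either side of them. The log2 ratios were 0.40 (1.32-fold higher) and -0.21 (1.16-fold lower), neither of which reached 2-fold.

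Chrm4 was measured by 2 probes within 321 bases of each other, and these differed in sign. The probe with the higher intensity measured 501 in KO and 400.4 in WT, and 535 in KO and 599 in KO Tg. Its log2 ratios were 0.44 and 0.06, 1.36-fold and 1.04-fold higher, and the second was -0.17 without normalization. The other probe measured 177 in KO and 316 in WT, and 154 in KO and 288 in KO Tg. Its log2 ratios were -0.73 and -0.67, 1.66-fold and 1.59-fold lower. The pair differed by 1.17 and 0.73 on the log2 scale. The scanner's own ratios of these spots had errors of 0.205 to 0.231. No direction is given here for Chrm4.

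**Figure D2:**
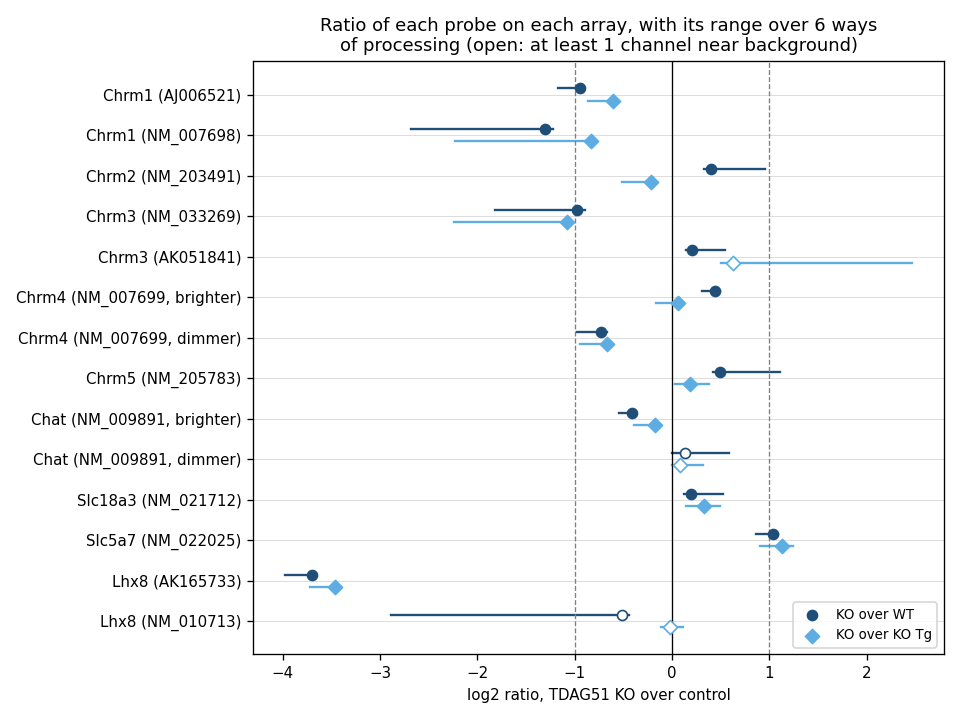
Log2 ratio of KO over WT and of KO over KO Tg for each probe, with a line over its range under 6 ways of processing (offset 50, offset 0, the scanner's ratio, median centring, no normalization and the deposited ratio) and dashed lines at 2-fold. Open symbols are near background in at least 1 channel. The probes of Chrm3 and of Chrm4 lie on both sides of 0, and those of Chrm1 on 1 side.

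The genes of acetylcholine synthesis and transport did not move as a group. The Chat probe with the higher intensity measured 307 in KO and 449 in WT, and 344 in KO and 461 in KO Tg. The log2 ratios of this probe were -0.42 (1.34-fold lower) and -0.18 (1.13-fold lower), both short of 2-fold. The other Chat probe measured 47.6 to 51.5 in all 4 channels, near background throughout. Slc18a3, whose gene lies within the first intron of Chat, measured 145 in KO and 117 in WT, and 138 in KO and 129.8 in KO Tg. For Slc18a3 the log2 ratios were 0.20 and 0.32, 1.14-fold and 1.25-fold higher. Chat and Slc18a3 thus had opposite signs in both comparisons, with neither at 2-fold.

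Slc5a7, the choline transporter, was the only member at least 2-fold higher in KO than in both controls. It measured 1285 in KO and 699 in WT, and 1295 in KO and 681 in KO Tg. The values of the 2 KO samples were close to each other and so were those of the controls. The log2 ratios were 1.04 and 1.13, 2.06-fold and 2.19-fold higher, with scanner errors of 0.227 and 0.234. They are just past the threshold, and without normalization they were 0.86 and 0.90, short of it. The probe ranked as the 1538th highest of 34571 against WT and the 1149th of 33802 against KO Tg, so many probes of the array had larger values. The named probes nearest to it were of Pkib, Nsmaf and Armh4, at distances of 0.02, 0.02 and 0.03.

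The channels of the same dye were then set against each other across the arrays, which compares KO Tg with WT, and KO with KO, without a difference in dye. KO and the controls were in different dyes on both arrays, so KO cannot be placed against a control this way. Over all 32931 probes well above background in both KO channels, KO on the second array and KO on the first differed with a robust SD of 0.14 on the log2 scale. For the 12 member probes among them, the absolute difference was 0.00 to 0.35 with a median of 0.10, and was largest for Chrm1 (AJ006521). Over 30119 probes, KO Tg and WT differed with a robust SD of 0.40, and the 11 member probes by 0.02 to 0.64 with a median of 0.15. Among these, Chrm2 was 0.64 higher in KO Tg than in WT (1.56-fold), Chrm4 by the probe with the higher intensity 0.49 higher, and Chrm1 (NM_007698) -0.59, that is lower. Lhx8 (AK165733) differed by -0.15 and Slc5a7 by -0.09 between the controls, much less than either differed from KO. The differences from KO are between dyes and may hold a dye effect of the probe. Those between the controls are across arrays and may also hold a difference between the arrays.

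**Figure D3:**
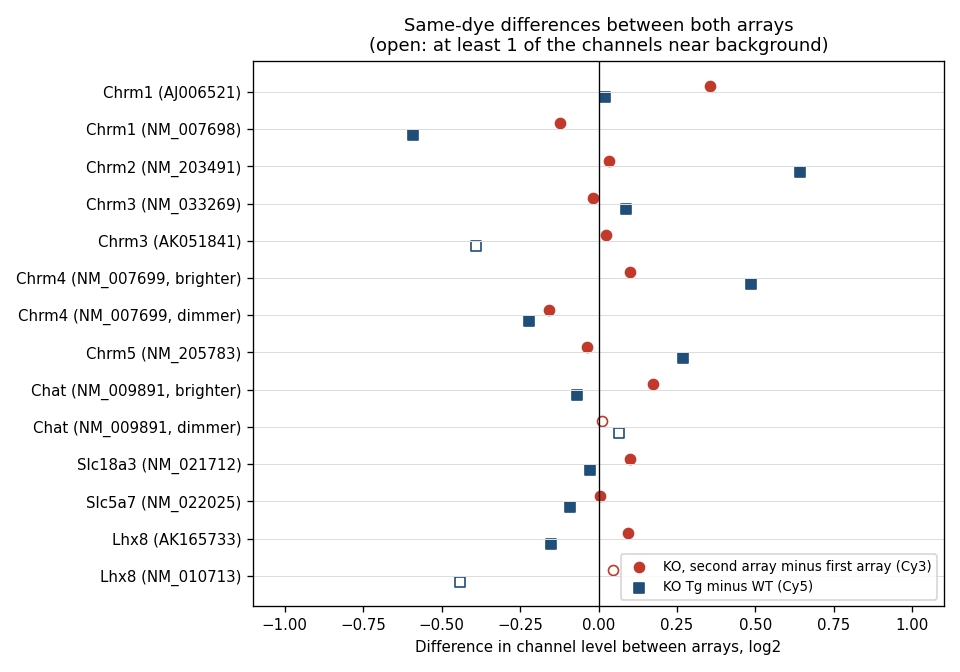
Log2 difference between channels of the same dye on the 2 arrays, KO minus KO in Cy3 and KO Tg minus WT in Cy5, for each probe, with open symbols where a channel was near background. Chrm2 has the largest difference between the controls (0.64) among probes well above background.

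The other genes of the pathway were taken from lists, with each gene given by its probe of highest intensity. The counts of each list are to be read beside the shares of all probes past 2-fold. These were 4.42% lower and 4.9% higher against WT, and 3.86% lower and 4.72% higher against KO Tg. Of 21 muscarinic signalling partners, 19 were above background in the comparison with WT and all 21 in that with KO Tg. Against WT, 3 were at least 2-fold lower and 1 higher, with a median of -0.42, and against KO Tg 2 were lower and 1 higher, with a median of -0.43, beside 0.01 over all probes. Rgs4, which speeds the shut-off of Gq and Gi signals, measured 11128 in KO and 52425 in WT, a log2 ratio of -1.63 (3.1-fold lower). On the second array Rgs4 was saturated in KO Tg. Without saturated genes, 3 and 1 of the list were lower, with medians of -0.38 and -0.41. Gnao1, the alpha subunit of Go, had log2 ratios of -0.64 and -0.93. Plcb4, a phospholipase C beta isoform well known from cerebellar Purkinje cells and thalamus, went the other way. It measured 3112 in KO and 1240.1 in WT, and 3545 in KO and 1845 in KO Tg, with log2 ratios of 1.54 and 1.21.

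Of 10 genes for acetylcholine breakdown, its anchoring, nicotinic modulation and choline handling, none reached 2-fold in either comparison, and their medians were 0.12 and 0.02. Ache, acetylcholinesterase, had log2 ratios of 0.22 and 0.17. Chka, a choline kinase, had 0.67 and 0.98.

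Of 12 genes of basal forebrain cholinergic neurons and of the medial ganglionic eminence, from which these neurons arise, 3 were at least 2-fold lower and 1 higher in KO against WT, and 4 lower and 1 higher against KO Tg. The medians were -0.37 and -0.44. Isl1, a LIM homeobox gene that acts with Lhx8, measured 475 in KO and 1432 in WT, and 454 in KO and 1741 in KO Tg, 2.65-fold and 3.20-fold lower. Nkx2-1, which specifies the medial ganglionic eminence, measured 336 in KO and 1005 in WT, and 342 in KO and 939 in KO Tg, 2.62-fold and 2.29-fold lower. Lhx6, a gene of interneurons from the same eminence, was 2.50-fold and 1.80-fold lower. Zic4, a zinc finger gene that is also abundant in cerebellum, was 2.25-fold and 2.27-fold higher. Of the 12 genes, 10 had values below 0 in each comparison. The summed normalized level of the 12 was 26318 in KO and 21978 in WT, and 25326 in KO and 22864 in KO Tg. Slc10a4, a vesicle transporter-like gene of cholinergic and monoamine neurons, made up much of these sums, with log2 ratios of 0.81 and 0.62. Without it the other 11 genes summed to 10063 in KO and 12700.2 in WT, and to 9605 in KO and 12644 in KO Tg. Ngfr, a neurotrophin receptor gene of these neurons, did not reach 2-fold, with log2 ratios of -0.65 and -0.41.

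A list of cranial motor neuron and brainstem cholinergic genes stood on the other side of 0. Of 10 genes, 9 were above background against WT and 8 against KO Tg. In both comparisons 5 were 2-fold higher or more in KO and none was lower, with medians of 1.06 and 1.5 and a summed level of 15378 against 5657 in WT and 14239 against 5270 in KO Tg. Calca, a gene for the calcitonin gene-related peptide found in motor neurons, measured 6996 in KO and 2002 in WT, and 6529 in KO and 1711 in KO Tg, 4.23-fold and 4.64-fold higher. Calcb had log2 ratios of 1.92 and 1.68. Isl2, a LIM homeobox gene of motor neurons, was 2.67-fold higher than in WT and at least 2.99-fold higher than in KO Tg, where its KO Tg channel was near background. Uts2, also among the 5, had its control channel near background on both arrays. By the lower bound it was at least 1.97-fold and 1.82-fold higher, which is short of 2-fold. Hoxb1 was near background on both arrays.

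Markers of brain regions moved with these results, and their values are given beside them. Of 12 striatal projection neuron genes, 11 were above background (all but Gpr6), and 9 were at least 2-fold lower in KO on each array, with medians of -1.41 and -1.54. Their summed level was 65464 in KO and 157851 in WT, and 62075 in KO and 160791 in KO Tg. Drd1, the dopamine receptor of 1 class of these neurons, was 5.44-fold lower than in WT and 5.34-fold lower than in KO Tg. The genes of the list that were not 2-fold lower were Drd2, with log2 ratios of 0.10 and 0.20, and Ppp1r1b, with -0.003 and -0.20. Of 11 genes of cortical and hippocampal pyramidal neurons, 6 were lower against WT and 8 against KO Tg and none was higher, with medians of -1.03 and -1.21. In the controls, 1 of these genes was saturated in WT and 3 in KO Tg. Among the others 6 were lower in each comparison, with medians of -1.04 and -1.16 and a summed level of 72020.0 against 158096 and 32645 against 70047. Of 9 forebrain interneuron genes on the array, 5 and 3 were lower and 1 (Pvalb) was higher, with medians of -1.11 and -0.77, and of -1.14 and -0.86 without 1 gene that was saturated in both controls.

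Genes of hindbrain and cerebellum had higher values in KO. Of 11 hindbrain and brainstem genes, 8 were at least 2-fold higher against WT and 9 against KO Tg, with medians of 2.60 and 2.04 and a summed level of 11712 against 3062 and 12210 against 3404. Of 9 cerebellar genes, 8 and 9 were higher, with medians of 2.29 and 2.18. Of these, 2 genes were saturated in KO on both arrays. Among the 7 others, 6 and 7 were higher, with medians of 2.29 and 2.01 and a summed level of 156809 against 40930.3 and 163756 against 38454. Gabra6, a receptor subunit of cerebellar granule cells, was 14.7-fold and 15.2-fold higher. General neuronal genes stood between these, with medians of -0.11 and -0.32, and of -0.32 and -0.40 without 1 saturated gene. None of the 6 reached 2-fold against WT, and 1 (Syt1, 2.44-fold) was lower against KO Tg. Several genes of the striatal, cortical, hindbrain and cerebellar lists were picked by the study on these arrays. So were Plcb4 of the muscarinic partners and Npy of the interneuron list. These lists are therefore not independent evidence of the direction of such genes. For some of the picked genes, Drd1 and Gabra6 included, the study also reported real-time PCR in the same direction. The part of these regional markers in the values of Lhx8, the receptors, Slc5a7 and the lists of cholinergic genes was not tested.

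**Figure D4:**
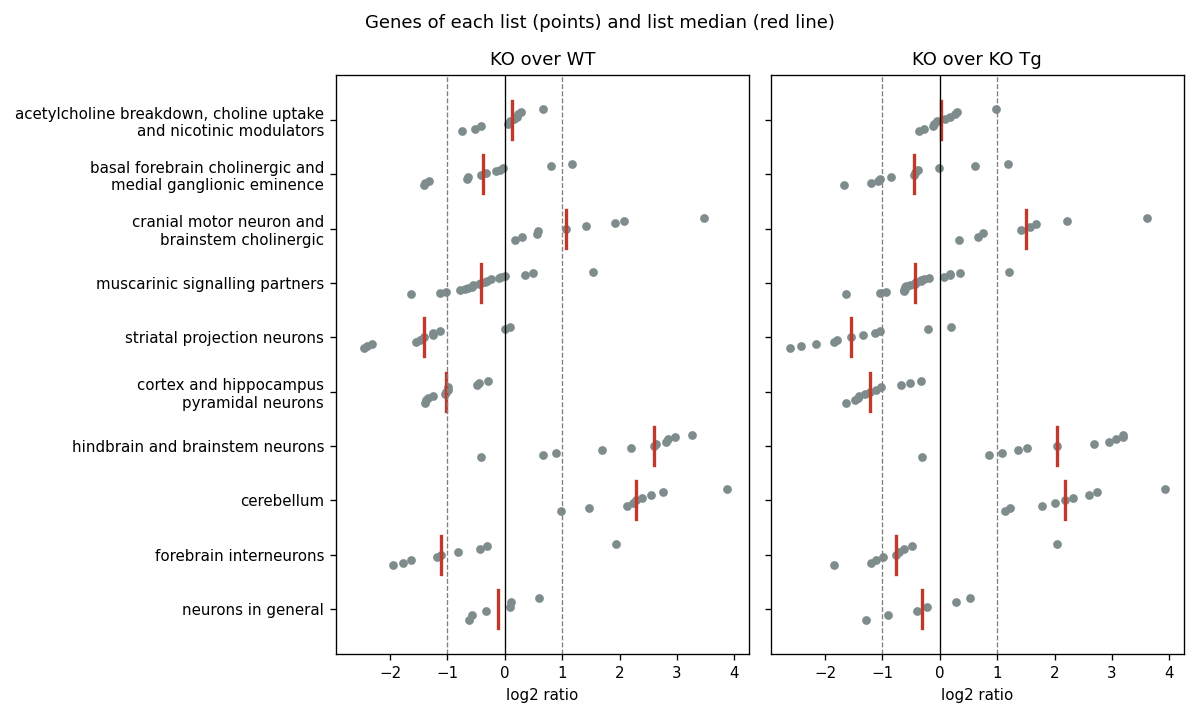
Log2 ratio of each gene above background in the 10 lists, KO over WT and KO over KO Tg, with a bar at the median of each list. The medians of the striatal and cortical lists lie below -1 and those of the hindbrain and cerebellar lists above 2, with cranial motor genes at 1.06 and 1.5.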

How the data were processed

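Two-colour Agilent whole mouse genome arrays were hybridized with brain RNA, 1 array for each comparison. From Agilent Feature Extraction 9.5.3.1, the authors deposited a mean intensity and a median background intensity per spot and channel, with the software's own log10 ratio (Cy5 over Cy3, corrected and dye-normalized) and an error score for that ratio. They also deposited a log2 ratio per probe, with a value for 35801 and 35717 of 41174 probes. Set against the scanner values it ran as Cy3 over Cy5 (median absolute difference 0.00594 and 0.0058), with medians of -0.01 on both arrays. Its filter and centring are not stated.

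Control spots (after background correction) and outlier spots (375 and 300) were given no weight. Background was corrected with normexp (offset 50) and each array was then normalized by loess, in limma 3.58.1 and R 4.3.3, and spots of a probe were averaged. Repeated spots had a median SD of 0.06 on the log2 scale over 245 probes with at least 5 spots. Single channels were scaled by Aquantile. A probe was tested where at least 1 channel was well above background, and the threshold was 2-fold. Where 1 channel was near background the fold is a lower bound, from the mean of the bright channel over the higher of the probe's own value and the lowest signal well above background on that array. Further steps used pandas 2.3.3, numpy 2.4.6 and matplotlib 3.10.9 in Python 3.11.15. The procedure was tested on simulated data.

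The members and lists were chosen with earlier results of these data known. Every member probe is named, with up to 4 genes of each list by the smaller of their absolute ratios in both comparisons, the 3 named probes nearest by Euclidean distance to each member past 2-fold in both, and TDAG51. Some genes that this rule names are not reported here, and the counts include them. Ache, Ngfr, Slc10a4, Drd2, Ppp1r1b, Uts2 and the genes listed as near background were named after their values were seen. Of 41174 probes, 32719 were matched to symbols of GRCm38.p6 (22951 by accession, 6659 by symbol and 3109 by synonym), of which no coordinates were used, and 8455 were not. The alternatives were offset 0, the scanner's ratio, median centring, no normalization, the deposited ratio, other background filters, a 1.5-fold threshold and all probes of a gene. Lists without saturated genes or without the gene of highest intensity, and the bound, were added after seeing the data.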

Additional observations from a re-analysis of the deposited data

Results flagged for a closer look

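The Chrm2 probe (NM_203491) had log2 ratios of opposite sign in the 2 comparisons, 0.40 against WT and -0.21 against KO Tg. Each is from 1 array, and the difference was not tested.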

How the results depend on the processing

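Of 137 alternative values of the 14 probes, 101 moved by less than the scanner error of the spot and 36 by more, and none of the values at 2-fold changed sign. The 101 include the values near background in both channels, of the dimmer Chat probe and of Lhx8 NM_010713 against KO Tg. Their scanner errors were 2.07 to 2.13 on the log2 scale, so large that none of them counted as moved. Of the values under 2-fold, 2 changed sign, both against KO Tg (Chrm4 by the probe with the higher intensity, to -0.17 without normalization, and Lhx8 NM_010713, near background, to 0.11 with median centring). The median of all tested probes was -0.19 and -0.25 without normalization, so those values are to be read relative to this shift. Member probes at least 2-fold lower against WT numbered 2, and 4 with offset 0, 5 by the scanner's ratio, 4 without normalization, 5 by the deposited ratio and 5 at 1.5-fold. Against KO Tg, 5 were lower at 1.5-fold. Those higher numbered 1, and against WT 2 by the scanner's and the deposited ratio and 0 without normalization, and against KO Tg 2 with offset 0, by the scanner's ratio, by the deposited ratio and at 1.5-fold, and 0 without normalization. For all probes, the number lower against WT was 2656 with offset 0, 3269 by the scanner's ratio, 2854 without normalization and 3356 by the deposited ratio, and higher 3140, 4024 and 3907 (offset 0, scanner and deposited). Against KO Tg, it was 2258, 2753, 2943 and 2906 lower, and 2952, 3793, 935 and 3563 higher, in the same order of the first 4 settings. The other background filters moved no count by over 1.5 times. No count of all probes was made at 1.5-fold, so the member counts at that threshold have no share of the array beside them.

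The list medians, given for WT and then KO Tg, moved as follows, and the cause was not tested. Without normalization they were -0.17 and -0.25 for acetylcholine breakdown, -0.79 and -0.77 for muscarinic partners, -1.74 and -1.93 for striatum, -1.44 and -1.64 for cortex, -0.64 and -0.88 for neurons, and against KO Tg 1.54 for cerebellum and -1.21 for interneurons. With offset 0, the scanner's ratio and the deposited ratio, cranial motor genes had 2.08, 2.17 and 2.08 against WT and 2.13, 2.64 and 2.49 against KO Tg, and hindbrain genes 3.08, 3.34 and 3.34 against WT and 2.62, 2.77 and 2.76 against KO Tg. With median centring, the medians were -0.64 for muscarinic partners against WT, -1.29 and -1.46 for cortex, -0.49 and -0.69 for neurons, and against KO Tg 1.72 for cerebellum and -1.03 for interneurons. With all probes of a gene they were -0.14 for basal forebrain genes against WT, -1.25 for striatum against KO Tg, 2.21 and 1.53 for hindbrain, -0.82 for interneurons against WT, and -0.56 and -0.57 for neurons. No paired analysis was possible because each comparison has 1 array, and no replicate could be left out. Members with intensities near background are limited by their signal over background.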
